A study of Homo sapiens with 4 samples.

Results

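The keratin genes encode the intermediate filament proteins of epithelial cells. They were taken here as every protein-coding gene in the deposited table whose symbol is KRT followed by digits and at most 1 letter, so keratin-associated protein genes and pseudogenes were left out. This gave 55 genes of 60048 in the table. They were divided by position into 29 type I genes (28 on chromosome 17 plus KRT18, which lies on chromosome 12) and 26 type II genes on chromosome 12. The libraries come from EU-seq, a nascent RNA assay that labels new transcripts with ethynyl uridine (EU, here 0.5 mM for 20 min) and captures them. All were made from HCT116, an established human colorectal carcinoma line, of the genotype RAD21-mAC. The control group (2 libraries) received DMSO, and the auxin group (2 libraries) was exposed for 3 h to 0.5 mM of the auxin indole-3-acetic acid, which triggers degradation of the tagged RAD21 protein, a core subunit of the cohesin ring that folds chromosomes into loops. The labels do not say whether the replicates came from separate cultures, so the p-values measure only the spread between these libraries.

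Keratins work in pairs: an acidic type I protein and a basic type II protein form a heterodimer, and these assemble into filaments that anchor at desmosomes and hemidesmosomes. Simple epithelia such as the gut lining use KRT8 with KRT18, KRT19 or KRT20, and stratified epithelia use KRT5 with KRT14 in the basal layer and other pairs above it, such as KRT4 with KRT13 in the lining of the mouth and oesophagus. A separate set builds hair. The genes of each type lie side by side, which makes the 2 clusters a case in which many related genes share a stretch of chromosome.

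The values are a signal per gene over its whole span, introns included, brought to a common scale across the 4 libraries; they are not read counts, and how many reads lie behind each is unknown. All gene positions are GRCh38 (hg38). Deposited totals ran from 61135244 to 93113007 per library, with both ends of that range in the auxin group. RAD21 itself stood at 5154 and 7190 in the control libraries and at 5893 and 6264 in the auxin libraries, which measures its RNA and not the loss of its protein. All 11 epithelial markers, among them the keratins KRT8, KRT18 and KRT19, were above the filter on low values. EPCAM, for example, lay between 4515 and 6076, and the lowest, LGALS4, between 62.9 and 107. The 5 leukocyte markers summed to between 99.9 and 112 in a library. The 7 fibroblast markers summed to between 1144 and 1332, and LUM was listed at 0 in 2 libraries. The 2 largest of them differed in opposite directions. COL1A1 had 577 and 732 in control and 893 and 998 in auxin. THY1 had 545 and 336 in control and 246 and 240 in auxin. Neither was called in the comparison below. The 4 endothelial markers summed to between 602 and 675 in control and between 701 and 835 in auxin, and the part of other cell types in the keratin results was not tested.

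Promoter sequences help to show what kind of genes these are. RefSeq start regions of GRCh38.p14 were matched by symbol for 34 of the 55 genes. KRT13, KRT80, KRT7, KRT15, KRT18 and KRT19 are among the 21 not matched. In 33 the matched start lay within 100 bases of the listed gene start, and in KRT8 it lay 23373 bases away. Of the keratin genes with a mean signal of at least 50, only KRT10, KRT32, KRT37, KRT39 and KRT8 were matched. The shares below therefore describe mostly keratin genes with low values. The letters TATAAA stood on the gene's strand between 20 and 40 bases before the start in 16 of the 34 (47.1%), against 695 of 27305 promoters of all genes (2.55%). The promoters of 3 genes of the type I cluster are shown, KRT10 from its first part and the neighbouring hair keratins KRT37 and KRT38 from the part near KRT13, because their measured values differ although each carries this element. Each line gives the 250 bases before the start, on the minus strand, with TATAAA in capitals, 29 bases before the start in KRT10 and 30 in KRT37 and KRT38. They lie at chr17:40822615-40822864 (KRT10), chr17:41424586-41424835 (KRT37) and chr17:41440984-41441233 (KRT38).
KRT10: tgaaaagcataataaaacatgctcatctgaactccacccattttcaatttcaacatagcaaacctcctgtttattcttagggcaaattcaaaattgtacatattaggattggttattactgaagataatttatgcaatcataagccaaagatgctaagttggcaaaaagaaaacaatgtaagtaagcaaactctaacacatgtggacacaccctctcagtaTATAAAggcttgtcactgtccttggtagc
KRT37: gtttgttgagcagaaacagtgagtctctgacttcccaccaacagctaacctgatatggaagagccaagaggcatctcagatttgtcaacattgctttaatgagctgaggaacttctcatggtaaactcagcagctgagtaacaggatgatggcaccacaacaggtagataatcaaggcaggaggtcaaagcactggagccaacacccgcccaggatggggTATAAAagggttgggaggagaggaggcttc
KRT38: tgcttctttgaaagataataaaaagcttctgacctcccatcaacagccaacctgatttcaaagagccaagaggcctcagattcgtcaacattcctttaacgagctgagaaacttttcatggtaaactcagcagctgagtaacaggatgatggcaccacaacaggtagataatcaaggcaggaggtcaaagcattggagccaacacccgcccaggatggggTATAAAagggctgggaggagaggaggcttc
Set side by side without gaps, the KRT37 and KRT38 windows carry the same base at 188 of 250 positions. TATAAA on either strand anywhere in the window was found in 21 of 34 keratin promoters (61.8%) and in 11.1% of all promoters. CACCC, a core of Krüppel-like factor sites, was found in 27 of 34 (79.4%, against 53.7%), and GGGCGG, with which it can overlap, in 4 (11.8%, against 42.3%). The letters GCCNNNGGC (TFAP2) were in 5 (14.7%, against 19.7%), GCGTG (aryl hydrocarbon receptor core) in 3 (8.82%, against 31.9%) and TGANTCA (AP-1) in 0 of 34 (against 6.60%). The median GC content was 44.0% in the keratin windows and 58.0% in all. A match describes these letters only.

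Auxin against control was then compared across the table, with limma on the log2 scale and Benjamini-Hochberg adjustment over all genes tested; a log2 fold change is given ± its standard error. In all, 2 keratin genes fell, KRT13 of type I and KRT80 of type II, and no keratin gene rose. Of the 55 genes, 33 passed the filter on low values and were tested, and 2 were called lower at an adjusted p under 0.05, where 0.4% of all 39464 tested genes were called lower and 0.332% higher. At an unadjusted p under 0.05, 10 keratin genes were lower, against 5.47% of all tested genes, and 0 were higher, against 4.75%. Both auxin libraries lay below both control libraries in 20 of the 33 keratin genes, against 19.6% of all tested genes, and above both in 1, against 18.6%. The fold change was below 0 in 29 of 33, against 48.7% of all tested genes. The 22 untested genes never had a level that allowed a comparison, and the filter favours a gene that is high in 1 group, so the count is better read among the 16 keratin genes with a mean of at least 50 over all libraries. Among these, 14 were below 0, against 52.3% of protein-coding genes with such a mean, and the auxin libraries were below both controls in 11, against 24.8%.

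The median log2 fold change was -0.39 over the 21 tested type I genes and -0.70 over the 12 tested type II genes, beside 0.0089 over all tested genes. Without control replicate 2 the type I median was -0.18, with 12 of 18 tested genes below 0, and without control replicate 1 it was -0.59; the type II median was -0.41 and -1.03 in the same fits. In the fit to all libraries the values ranged from -2.51 to 0.44 in type I and from -3.04 to 0.077 in type II. The difference between the types was not tested, and neighbouring keratin genes are not independent of each other. The size of the shift depended on the libraries: for all tested keratins the median was -0.30 for auxin replicate 1 over control replicate 1, -0.28 for auxin replicate 2 over control replicate 1, -0.92 for auxin replicate 1 over control replicate 2 and -0.67 for auxin replicate 2 over control replicate 2. Control replicate 2 over control replicate 1 gave 0.45, with 23 of 33 keratin genes higher in replicate 2, and auxin replicate 2 over auxin replicate 1 gave 0.047. Without control replicate 2 the keratin median was -0.32, with 24 of 30 tested genes below 0, and without control replicate 1 it was -0.61, with 27 of 31.

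**Figure D1:**
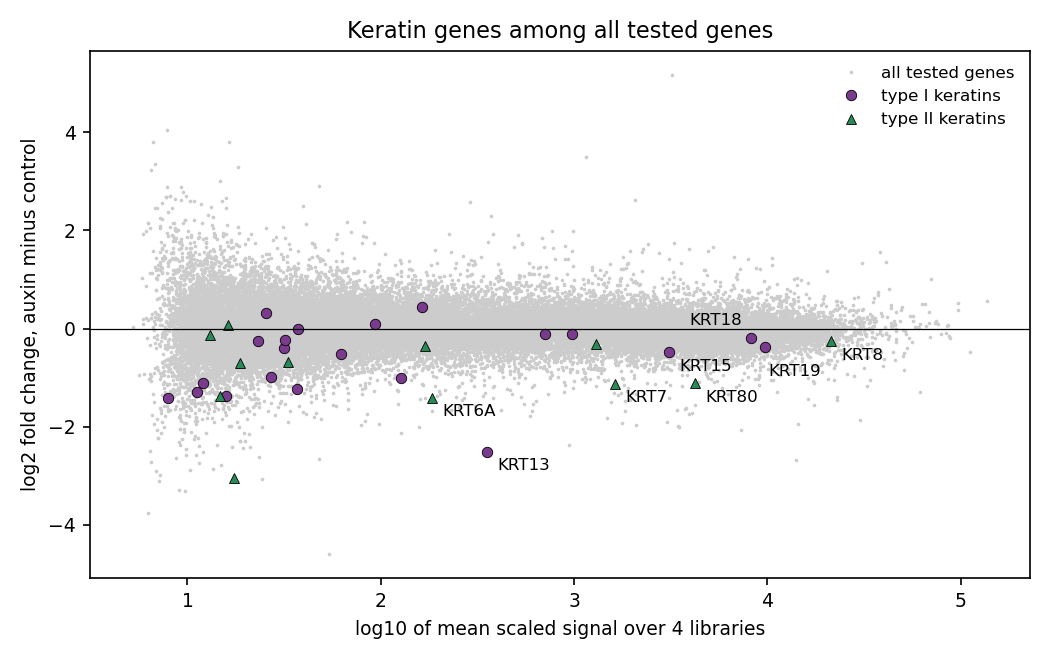
Log2 fold change (auxin minus control, vertical axis) against the log10 of the mean scaled signal over 4 libraries (horizontal axis) for all 39464 tested genes in grey, the 21 tested type I keratins as purple circles and the 12 tested type II keratins as green triangles. KRT13 at -2.51 lies at the lower edge of genes of its level, and 29 of the 33 keratins lie below 0.

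KRT13, a type I keratin of non-cornifying stratified epithelium, showed the steeper of the 2 called falls among keratins. Its gene (ENSG00000171401, chromosome 17, 41500981 to 41505612, minus strand) had a scaled signal of 479 and 726 in the control libraries and of 122 and 86.5 in the auxin libraries. Each control value was far above each auxin value. The means were 602 ± 174 and 104 ± 25.3 (SD, n = 2 each), so auxin left 17.3% of the control signal. The log2 fold change was -2.51 ± 0.28 (adjusted p = 0.00293 by limma), and between -2.80 and -2.21 when 1 library was left out. The lncRNA gene AC019349.1 lies inside KRT13 on the other strand, and it fell too, with 196 and 313 in control and 66.9 and 55.0 in auxin (log2 fold change -2.01, limma adjusted p = 0.0164, or 0.0846 without control replicate 2). The table's values do not separate strands: genes nested in a host on the opposite strand carried a median of 1.04 times the host's signal per base, and those on the same strand 1.17 times. The signals of KRT13 and AC019349.1 therefore cannot be told apart. The 8 stratified squamous markers, KRT13 among them, summed to 1500.5 and 1713 in control and to 1026 and 1027 in auxin, and KRT1 was at 0 throughout. Most of that difference was KRT13 itself: the other 7 summed to 1022 and 988 in control and to 904 and 941 in auxin. KRT10 made up most of these sums, at 779 and 698 in control and 702 and 666 in auxin. Of the 5 tested among the 7, 4 were below 0 and 1 above, and limma called 0. Over all tested genes, 48.7% were below 0. TP63, the basal-cell regulator of that list, overlapped between the groups at 146 to 194. These values cover a long span: per kilobase TP63 stood at 0.66 in control, where KRT13 stood at 130. The part of such cells in the fall of KRT13 was not tested.

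KRT80, a type II keratin found in many epithelia, had the other called fall. Its gene (ENSG00000167767, chromosome 12, 52168996 to 52192014, minus strand) overlaps no other gene in the table. The signal was 5919 and 5550 in control and 2807 and 2527 in auxin. The replicates lay close together and the groups were well apart. The means were 5734 ± 261 and 2667 ± 198 (SD, n = 2 each), or 46.5% of control remaining, with a log2 fold change of -1.11 ± 0.14 (adjusted p = 0.00664 by limma). The call was kept in each fit without 1 library. On the deposited scale, without further scaling of the libraries, the log2 fold change was -1.13 and the adjusted p was 0.761.

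Other genes between KRT80 and KRT86, at that end of the type II cluster, also had fold changes below 0, short of the threshold. KRT7, a partner of KRT19 in ductal and glandular epithelia, stood at 2357 and 2041 in control and at 1382 and 733 in auxin, a log2 fold change of -1.12 ± 0.26 (adjusted p = 0.103 by limma). The auxin libraries lay below the controls but differed between themselves, and the value was -0.67 without auxin replicate 2 and -1.57 without auxin replicate 1. In the latter fit limma called KRT7, but a fit without 1 library leaves a single library in that group, which is then assumed to vary like the other group. KRT7-AS, which lies inside KRT7 on the other strand, had a log2 fold change of -0.98. The values do not separate strands, so its signal cannot be told apart from that of KRT7. The transcribed pseudogene KRT87P had a log2 fold change of -1.20. The lncRNA genes LINC02874 and LINC00592, between KRT80 and KRT7, gave -0.66 and -0.76 (limma adjusted p = 0.488 and 0.249). The hair keratin KRT86 gave -0.32 and KRT81, which lies inside it on the other strand, -0.35 (limma adjusted p = 0.574 and 0.76). The same limit on strands holds for KRT86 and KRT81. Of the other genes inside KRT86, AC021066.1 and AC021066.3 gave 0.36 and 0.14, and AC121757.2 and AC121757.1 gave -1.44 and -1.72. Within 200 kb of KRT80, 23 other genes were tested, the keratins KRT7, KRT86, KRT81 and KRT83 among them. Of these, 14 were below 0 with none called, where 48.7% of all tested genes were below 0. Those that overlap KRT7 or KRT86 are not a set separate from these keratins. On the far side of KRT80 from KRT7, the nearest protein-coding genes were SMIM41 (log2 fold change 0.12), ATG101 (0.031) and NR4A1 (0.15).

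KRT6A, a type II keratin made in wounded and stressed epithelium, was lower with auxin but varied between controls. It had 156 and 397 in control and 90.1 and 96.6 in auxin. The auxin libraries agreed closely while the controls stood far apart, and the log2 fold change of -1.41 ± 0.38 (adjusted p = 0.17 by limma) became -2.07 without control replicate 1 and -0.74 without control replicate 2. KRT6A was called without control replicate 1, without auxin replicate 1 and without auxin replicate 2, each time with 1 library against 2 and the spread taken from the group of 2 and the trend over all genes. KRT6B and KRT6C, near-identical copies beside it whose signals cannot be fully told apart from it, were at 17.8 and 40.9 (KRT6B) and 13.6 and 29.7 (KRT6C) in control. In auxin they were at 10.7 and 0 (KRT6B) and 4.45 and 11.2 (KRT6C). These levels are low, above all in auxin. The lowest value above 0 lies between 0.73 and 1.36 per library on the deposited scale. KRT6B was called in the fit without auxin replicate 1, where its auxin group is the single library listed at 0. KRT5, the basal-layer type II keratin, stood at 26.3 and 57.3 in control and 18.7 and 30.3 in auxin, with overlapping groups.

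The most abundant keratins were those of simple epithelium, and their fold changes were small. KRT8 (ENSG00000170421, chromosome 12, 52897187 to 52949842, minus strand) gave 21642 and 25008 in control and 18994 and 19989 in auxin. Its log2 fold change was -0.26 ± 0.11 (95% interval -0.51 to -0.0061, adjusted p = 0.47 by limma). Its partner KRT18 (ENSG00000111057, chromosome 12, 52948871 to 52952900, plus strand) gave 8085 and 9522 in control and 7409 and 8054 in auxin, a log2 fold change of -0.18 ± 0.13 (95% interval -0.48 to 0.11, adjusted p = 0.758 by limma). In both genes the auxin libraries lay below both controls, KRT18 by a narrow margin. KRT19 (ENSG00000171345, chromosome 17, 41523617 to 41528308, minus strand), another type I keratin of simple epithelium, gave 10381 and 11459 in control and 8340 and 8538 in auxin, a log2 fold change of -0.37 ± 0.12 (95% interval -0.64 to -0.10, adjusted p = 0.261 by limma). None of the 3 passed the threshold, and the intervals do not include a fall as large as that of KRT80. KRT20, the type I keratin of mature intestinal cells, was low in every library, between 25.0 and 42.0.

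KRT8 and KRT18 also have many processed copies in the genome. The table held 51 genes named as KRT8 copies and 66 named as KRT18 copies, of which 42 and 51 were tested and 0 were called by limma (2 KRT8 copies were lower and 1 KRT18 copy higher at an unadjusted p under 0.05). Limma called 0.732% of all tested genes, and 4.75% were higher and 5.47% lower at an unadjusted p under 0.05. The KRT8 copies summed to 6580 and 7977 in control and to 6607 and 6404 in auxin. The KRT18 copies summed to 6158 and 6380 in control and to 6220 and 6018 in auxin. Both sums overlapped between the groups. Of the tested copies, 34 of 42 for KRT8 and 31 of 51 for KRT18 had a fold change below 0. Over all tested genes, 48.7% were below 0. In 37 of the 42 KRT8 copies, control replicate 2 was above control replicate 1, against 19758 of all 39464 tested genes. How the authors' counting treated reads that match both a gene and its copies is not given in the sources used here. The span of KRT8 also overlaps the first part of KRT18, and the RefSeq start matched to KRT8 lies 23373 bases inside it.

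**Figure D2:**
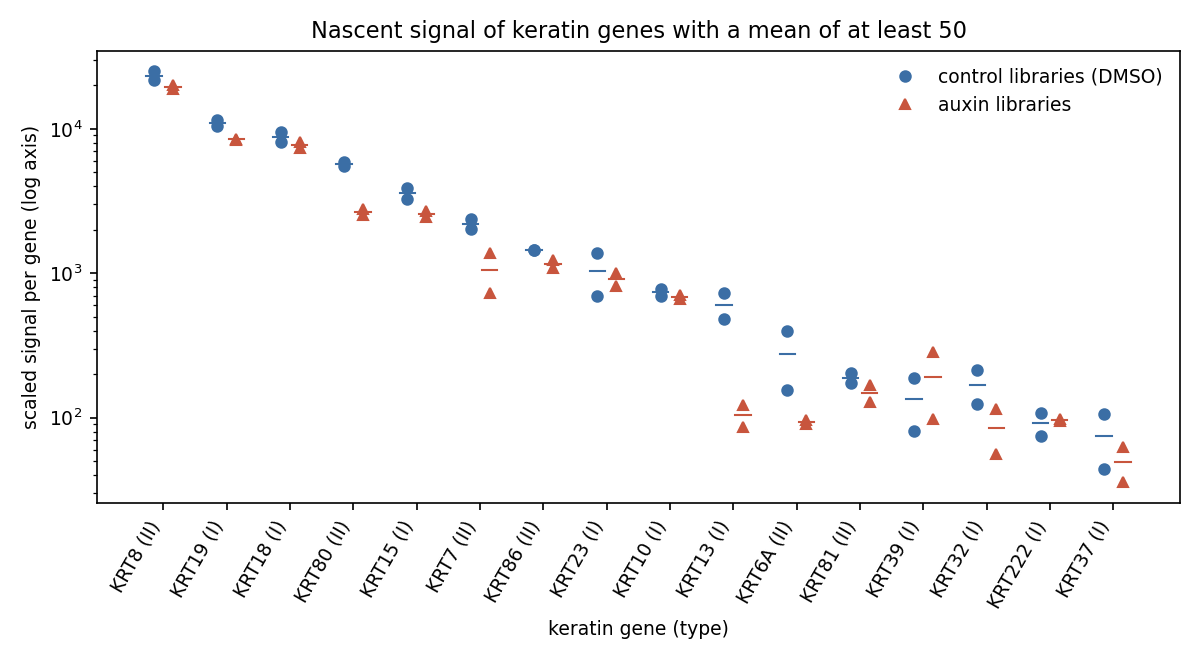
Scaled signal (vertical log axis) of the 16 keratin genes with a mean of at least 50, ordered by mean, with the type in brackets; blue circles are the 2 control libraries, red triangles the 2 auxin libraries and short lines the group means. The groups stand clear of each other for KRT13 (479 and 726 against 122 and 86.5) and KRT80 (5919 and 5550 against 2807 and 2527), and overlap for KRT23, KRT39, KRT10, KRT222 and KRT37.

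Per kilobase of gene span, the order of control levels was led by KRT19 (2327 ± 162, SD, n = 2) and KRT18 (2184 ± 252), whose library ranges overlap. KRT15 (447 ± 56.2) and KRT8 (443 ± 45.2) followed and were not separated either, although the level of KRT8 depends on its long annotated span. KRT80 came next at 249 ± 11.3, followed by KRT10 at 164 ± 12.8. KRT7 at 140 ± 14.3 and KRT13 at 130 ± 37.6 were indistinguishable in control. With auxin the signal per kilobase of KRT13 was 22.5, and KRT7 and KRT80 were at 67.5 and 116. The hair keratin KRT39 also had a mean of 22.5 in auxin, from libraries far apart (98.1 and 286 over the whole gene). The remaining genes with a mean of at least 50 ran from KRT23 at 69.3 down to KRT222 at 8.71 in control, and the ranges of KRT23, KRT6A and KRT86 overlapped in sequence. Together the keratin genes made up 0.0718% and 0.0820% of the deposited signal in the control libraries and 0.0605% and 0.0602% in the auxin libraries, mostly from KRT8, KRT19 and KRT18.

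On chromosome 17 most tested genes around KRT13 had fold changes below 0, and no keratin there other than KRT13 passed the threshold. KRT15, a basal-cell type I keratin whose gene lies 8134 bases away, stood at 3268 and 3906 in control and at 2700 and 2452 in auxin (log2 fold change -0.47 ± 0.16, adjusted p = 0.265 by limma). The groups did not overlap, and KRT19 lies next to it on the far side. On the other side lies a run of hair keratins. KRT36 went from 30.5 and 42.0 in control to 16.0 and 19.1 in auxin, KRT32, a hair cuticle keratin, from 125 and 213 to 56.2 and 114.5, and KRT38 from 42.4 and 62.4 to 20.5 and 22.5. Their log2 fold changes were -0.99, -1.02 and -1.22, with limma adjusted p-values of 0.489, 0.359 and 0.275, so none was called although the groups did not overlap in these genes. Without auxin replicate 2, KRT32 was called, with 1 auxin library (56.2) against 2 controls. KRT35, between KRT36 and KRT32, had overlapping groups, with 46.6 and 28.6 in control and 29.4 and 44.9 in auxin. KRT37, whose promoter resembles that of KRT38, had 44.1 and 105 in control and 35.7 and 62.9 in auxin, with overlapping groups, and KRT34 was above both controls in both auxin libraries at 32.1 and 24.7 against 20.3 and 24.6.

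Of 19 other tested genes within 200 kb of KRT13, 17 were below 0 and 2 were called. Over all tested genes, 48.7% were below 0 and 0.732% were called. Most of the 19 are keratin genes already counted above, and AC019349.1, MIR6510 and AC003958.2 overlap keratin genes. The 19 are therefore not a set separate from the keratin genes. The called genes were AC019349.1 and the pseudogene TBC1D3P7, which lies 171436 bases away beyond the hair keratins and had 74.6 and 135 in control and 4.45 and 2.25 in auxin (log2 fold change -4.59, limma adjusted p = 0.00403, and -3.06 with a pseudocount of 10). TBC1D3P7 belongs to a family of near-identical copies and its auxin values are close to 0, so its size is uncertain. At the other end of the window EIF1, a translation initiation factor, had a log2 fold change of 0.068. KRT14, KRT16 and KRT17, keratins of basal and activated epidermis, were between 2.67 and 27.6 in every library, and their near-identical sequences may share reads. KRT17 was lower in both auxin libraries (19.5 and 13.3 in control, 5.35 and 6.74 in auxin) but not called. The groups overlapped for KRT14 and KRT16. In the first part of the cluster KRT10, the type I keratin of the upper epidermis, had 779 and 698 in control and 702 and 666 in auxin, a log2 fold change of -0.11 ± 0.18. KRT23, another type I keratin, had 696 and 1374 in control and 816 and 1011 in auxin, KRT39 had 80.5 and 189 in control and 98.1 and 286 in auxin, and KRT222 had 74.6 and 108 in control and 94.5 and 97.7 in auxin. In these 3 genes the control libraries bracketed at least 1 auxin library and no group difference stood out. KRT12 and KRT26 were lower in both auxin libraries but were low in every library, at most 35.8 for KRT12 and 12.7 for KRT26.

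**Figure D3:**
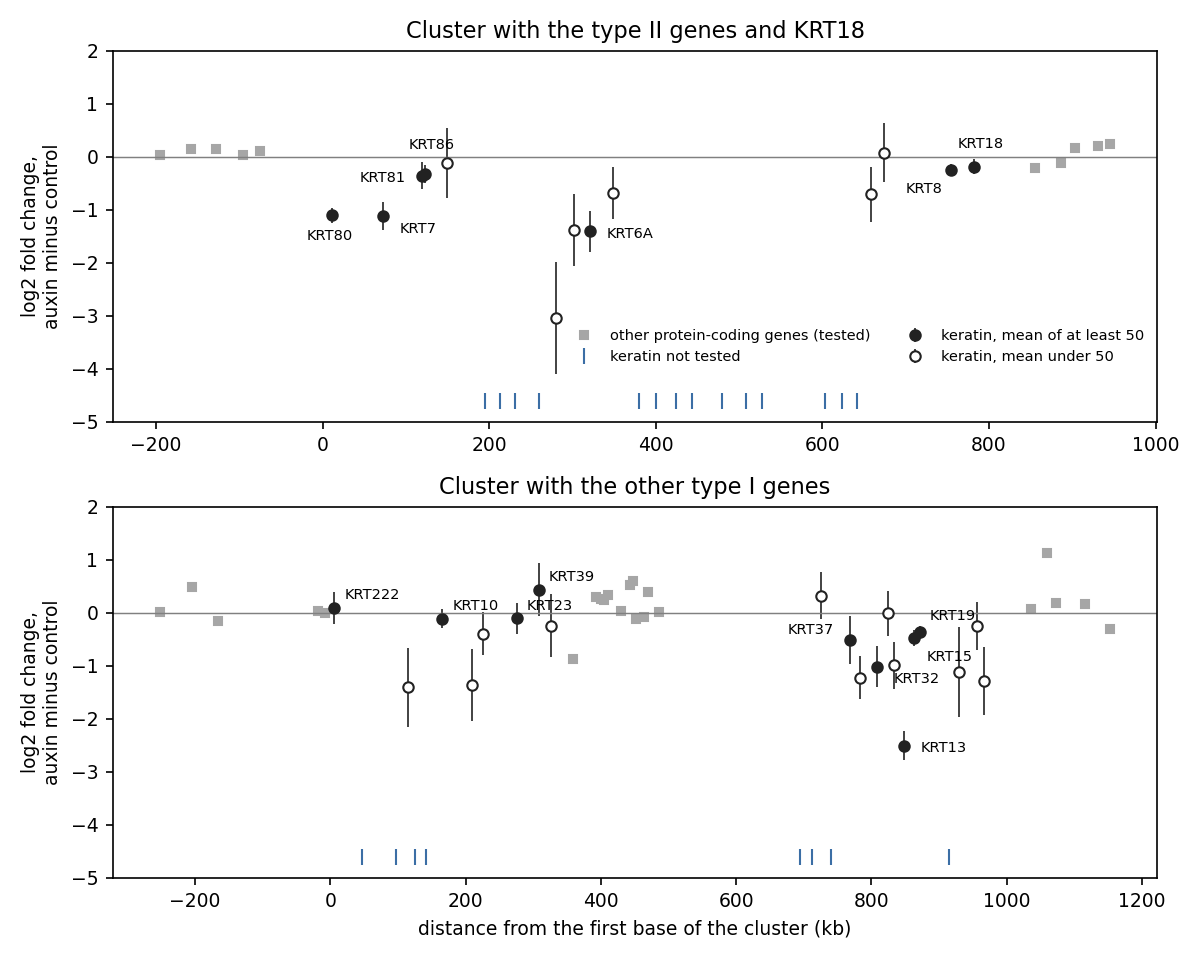
Log2 fold change (auxin minus control, vertical axis) against distance in kb from the first base of each keratin cluster (horizontal axis), with the chromosome 12 cluster above and the chromosome 17 cluster below. Filled circles are keratins with a mean of at least 50 and open circles those below it, with the standard error as bars; grey squares are other tested protein-coding genes and blue ticks keratins not tested. KRT80 and KRT7 lie at -1.11 and -1.12 and KRT13 at -2.51, while the 5 flanking genes before KRT80 lie between 0.026 and 0.16.

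Other protein-coding genes in and beside the clusters were taken as those between the first and last keratin gene and the 5 nearest beyond each end. Of 55 such genes, 33 were tested and limma called 0, against 0.732% of all tested genes. At an unadjusted p under 0.05, 2 were higher and 0 lower, against 4.75% and 5.47%. The fold change was below 0 in 8 and above in 25, where 48.7% of all tested genes were below 0. CCR7 had the smallest p, with 9.33 and 21.5 in control and 72.2 and 60.6 in auxin (log2 fold change 2.14, limma adjusted p = 0.0862). The keratin-associated protein genes, which encode matrix proteins of hair and interrupt the type I cluster, were tested in 16 cases over the whole table, with 5 below 0 and a median log2 fold change of 0.25, and limma called 0 of them, with 0 in either direction at an unadjusted p under 0.05. KRTAP2-3, for example, had 1389 and 1723 in control and 1645 and 2029 in auxin. KRTAP2-1 had 343 and 386 in control and 393 and 508 in auxin. KRTAP2-2 had almost the same values, at 352 and 385 in control and 385 and 511 in auxin. Genes of this family may share reads, so they and the neighbour counts that include them are not independent. EIF4B, the nearest protein-coding gene beyond KRT18, had a log2 fold change of -0.22, and JUP, beyond the end of the type I cluster, one of 0.17. Whether keratin genes differ from these neighbours was not tested.

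The untested keratins were at or near the lowest measurable values. KRT1, KRT76, KRT77 and KRT82 were listed at 0 in every library. KRT4, the usual partner of KRT13, had 5.08 and 8.18 in control and 5.36 and 3.37 in auxin. The highest value of any untested keratin was 12.4, for KRT73 in auxin replicate 2, a gene at 0 in auxin replicate 1.

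The genes that keratin filaments work with were examined through lists of filament partners, desmosome, hemidesmosome, cornified envelope and transcription factor genes. For comparison, limma called 0.732% of all tested genes, and 4.75% were higher and 5.47% lower at an unadjusted p under 0.05. At these shares, a list of this length with 0 called does not stand out. Among the filament partners, all 21 were tested and limma called 0, with 2 higher and 3 lower at an unadjusted p under 0.05 and a median log2 fold change of 0.0083. CDH1, the epithelial cadherin, had the smallest p, with 11060 and 11199 in control and 16109 and 16554 in auxin (log2 fold change 0.55, limma adjusted p = 0.0578). Of the 14 desmosome genes, all tested, limma called 0 (0 higher and 1 lower at an unadjusted p under 0.05), and the median was -0.032. PKP4, an armadillo protein of cell junctions, had the smallest p, with 8693 and 9522 in control and 6481 and 7338 in auxin (log2 fold change -0.40, limma adjusted p = 0.259). Of the 25 cornified envelope and squamous genes, 11 were tested and limma called 0 (0 higher and 2 lower at an unadjusted p under 0.05), with a median of 0.043. KLK5, an epidermal protease, had 279 and 210 in control and 123 and 65.1 in auxin (log2 fold change -1.42, limma adjusted p = 0.101).

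In the hemidesmosome list all 9 genes were tested. With limma, 3 were higher at an unadjusted p under 0.05, against 4.75% of all tested genes, and 3 lower, against 5.47%. Fold changes in this list thus opposed each other, and their median on the log2 scale was -0.021. Among 29 transcription factors known to act on keratin genes, 28 were tested, 2 rose and 1 fell, where 0.332% of all tested genes were called higher and 0.4% lower, and the median was -0.035. TFAP2A, a factor of epidermal and neural crest genes, rose from 3500 and 3651 to 9393 and 10368 (log2 fold change 1.46 ± 0.13, adjusted p = 0.00126 by limma). OVOL1, a repressor that keeps cells epithelial, rose from 2347 and 2308 to 4886 and 4542 (log2 fold change 1.02 ± 0.14, adjusted p = 0.011 by limma). SOX9, a factor of intestinal crypt and hair follicle stem cells, fell from 4526 and 6526 to 1257 and 1507 (log2 fold change -1.98 ± 0.19, adjusted p = 0.00183 by limma). The groups of each of these 3 genes lie well apart. On the deposited scale SOX9 was still called, and OVOL1 and TFAP2A (adjusted p = 0.165 by limma) were not.

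**Figure D4:**
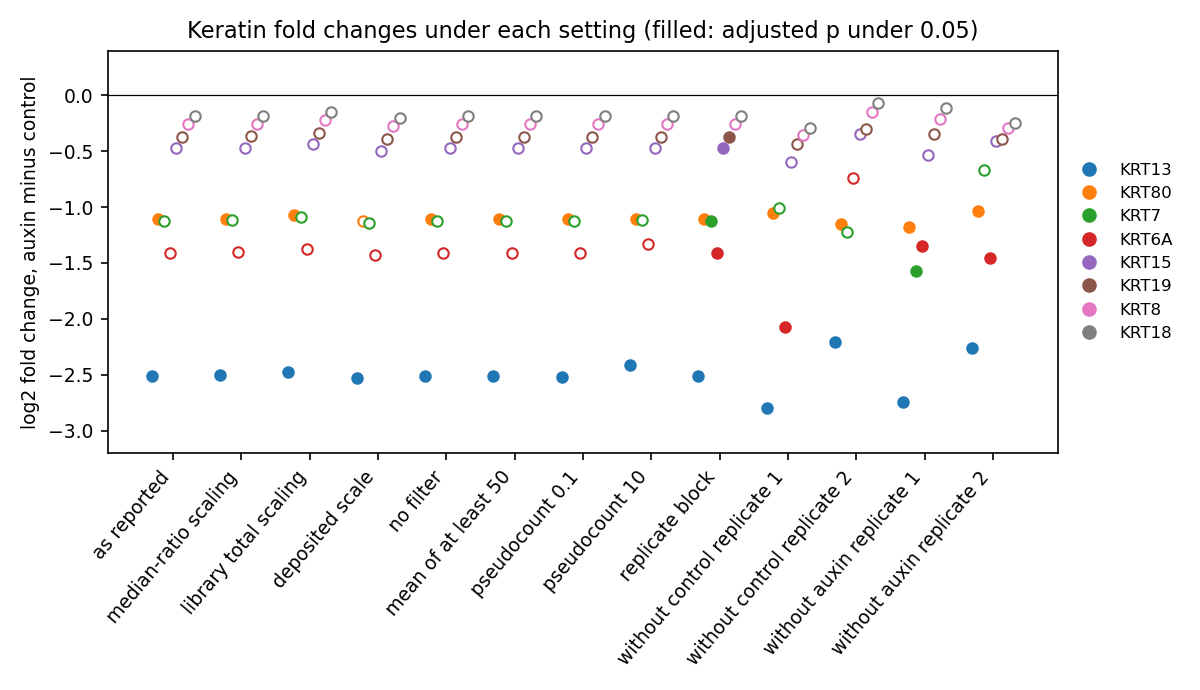
Log2 fold change (vertical axis) of KRT13, KRT80, KRT7, KRT6A, KRT15, KRT19, KRT8 and KRT18 under each setting of the analysis (horizontal axis), 1 colour per gene, filled where the limma adjusted p was under 0.05 and open otherwise. KRT13 is filled under every setting plotted, between -2.80 and -2.21; KRT80 is open on the deposited scale only; KRT6A runs from -2.07 to -0.74 and KRT7 from -1.57 to -0.67 when 1 library is left out.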

How the data were processed

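The authors deposited 1 table with a scaled signal per gene and library, gene coordinates, span and type; the labels do not explain the scaling. Per the submitters' processing notes, Trimmomatic 0.39, Bowtie2 2.4.5, deepTools 3.5.1 and the builds hg38 and dm6 were used, with no role stated; the counter and the annotation are not given in the sources used here. Per the labels' protocols, 200 µg of rRNA-depleted human RNA was mixed with 20 µg of mRNA from EU-labelled fly S2 cells before capture, and the library kit keeps strand. Low values in each column are multiples of 1 step, but among genes spanning at least 10 kb between 2 and 8 per library stood at a single step, so a step was not treated as a read. Depth in reads is unknown, and precision rests on the replicates. A misspelt control column was assigned to control replicate 2 by its number. Starts in the table count from 0 and are printed 1 higher.

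TMM factors were computed over genes that pass the filter, trimming 30% of the log ratios and 5% of the mean levels from either tail (divisors 0.999, 1.01, 0.816 and 1.21 for control replicates 1 and 2 and auxin replicates 1 and 2), which removes any change in total RNA. The filter asked for 2 or more libraries at 10 or more, expressed for the median library total, and for a sum over libraries of 15 or more. With a pseudocount of 1 added, the scaled values were taken to log2 and fitted with limma 3.58.1 (R 4.3.3; lmFit, eBayes with trend; prior degrees of freedom 8.23), auxin against control, with Benjamini-Hochberg adjustment at 0.05; fold changes on this scale understate changes of low genes. The procedure was tested on simulated data. Named genes were KRT13, KRT8, KRT18, called members, members with a mean of at least 50, and called or smallest-p genes of each list; the low keratins, the genes beside KRT13 and KRT80 and the other neighbours that are named were chosen after their values were seen. The members and lists were chosen with earlier results of these data known. Motifs were searched on both strands with Python 3.11.15; matplotlib 3.10.9 drew the figures. Alternatives covered scaling, filter, pseudocount, threshold, replicate block and leaving out each library. The result for 1 gene of the hemidesmosome list is not reported here.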

Additional observations from a re-analysis of the deposited data

How the results depend on the processing

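KRT13 kept its direction and its call under every alternative run (log2 fold change -2.80 to -2.21). The labels do not tie equal replicate numbers to a common day or batch, and 2 pairs cannot settle a pairing (replicate 2 minus replicate 1 correlated between control and auxin with Pearson's r 0.231 across tested genes, 0.462 across the 29158 with a mean of at least 50 and 0.269 across the 33 tested keratins). With the replicate block, limma called 9 keratin genes, all lower (KRT13, KRT80, KRT7, KRT6A, KRT6B, KRT15, KRT19, KRT32 and KRT38), 4273 genes in all, 28 genes of the partner lists and 3 cluster neighbours. In that fit, on the deposited scale and in the fits without an auxin replicate, the prior degrees of freedom were infinite, so genes shared 1 trend of spread. On the deposited scale 1 keratin gene, 55 genes in all and 1 partner gene were called; the cause was not tested. At an adjusted p under 0.01, 82 genes and 2 partner genes were called, fewer by construction. Leaving out 1 library at a time gave 2 to 5 keratin genes, 132 to 681 genes in all, 4 to 9 partner genes and 0 to 1 cluster neighbours, the type II median lay between -1.03 and -0.41 and the type I median between -0.59 and -0.18. Each of these fits has 1 library in a group, assumed to vary like the other group. KRT6A was called without control replicate 1, auxin replicate 1 or auxin replicate 2, KRT7 and KRT6B without auxin replicate 1, and KRT32 without auxin replicate 2. Signs turned for KRT222 (-0.16 to 0.36 over the fits without 1 library, negative without control replicate 1), KRT23 (-0.59 to 0.38, positive without control replicate 2 and, at 0.055, without auxin replicate 1), KRT39 (-0.33 to 1.21, negative without auxin replicate 2 and, at -0.16, without control replicate 1) and KRT37 (-1.13 to 0.10, positive without control replicate 2), none of them called. The number of reads is unknown, so a change in the lowest keratins was not detectable beyond the spread of 2 libraries a group.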
